A study of Mus musculus with 9 samples.

Results

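The genes described here drive DNA replication and cell division. They were 43 genes taken by name, of which 34 had a mean of at least 0.5 FPKM (the fragments of a gene divided by its transcript length and by the library's mapped fragments) over all libraries, among 23234 gene symbols in each file. By role, 14 genes act in S phase (13 above the floor), 24 act in mitosis (17 above it) and 5 are the G1 cyclins of D and E type (4 above it). The 9 genes below the floor were Cdc6, Ccne2, Cdk1, Plk1, Bub1, Cenpe, Cenpf, Nusap1 and Top2a. Just inside the floor were Ccnd1 at a mean of 0.53 FPKM and Ccnb1 at 0.57 FPKM, and just outside it were Top2a at 0.49 FPKM and Cenpf at 0.47 FPKM.

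RNA was measured in 9 libraries of blood monocytes, sorted by CD11b and by Gr-1, the epitope shared by Ly6C and Ly6G, from C57BL/6 mice that were 8 months old. Every mouse carried Yaa, a Y chromosome with a translocated X segment that holds Tlr7. The 4 Gr-1+ libraries were labelled null (Fcgr2-/-.Yaa, replicates 1 and 2), CEBPaCre (CEBPaCre;Fcgr2 fl/fl.Yaa) and CD19Cre (CD19Cre;Fcgr2 fl/fl.Yaa), and the 5 Gr-1- libraries were labelled null, CEBPaCre, CD11cCre (CD11cCre;Fcgr2 fl/fl.Yaa), CD19Cre and floxed (Fcgr2 fl/fl.Yaa, with no Cre). Fcgr2 encodes the inhibitory receptor for IgG, CD32. Null mice lack it in every cell, and the Cre labels name the promoter that drives its removal: the CEBPa driver acts in myeloid cells, the CD11c driver in dendritic cells and part of the monocytes, and that of CD19Cre in B cells. Most genotypes had 1 library per subset, and no label ties a library to its own animal or pool, so p-values cover the spread between these libraries alone.

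A dividing cell loads the MCM helicase onto origins in G1, under the control of D and E type cyclins, copies its DNA in S phase with the sliding clamp PCNA and a supply of deoxynucleotides, and then condenses and separates its chromosomes under cyclin B, Aurora kinases and the kinesins of the spindle. Most S phase genes are switched by E2F factors, and most mitotic genes are held off in resting cells by the DREAM complex at CHR elements and are activated with NF-Y at CCAAT boxes. Blood monocytes are regarded as largely non-dividing cells that descend from proliferating progenitors of the bone marrow.

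The promoters of the 2 gene classes differ in how often they hold CHR and E2F letters, and both often hold CCAAT boxes. Those of 4 genes are shown. Ccnb2 (mitosis) and Mcm5 and Mcm6 (S phase) passed the subset test below in opposite directions, and Mki67, the usual marker of proliferation, did not pass. Sequences are the 170 bases before the gene start in the RefSeq table of build GRCm38.p6, printed 5′ to 3′ on the strand of the gene, and capitals mark the CHR letters TTTGAA, the CCAAT box and the E2F letters TTTNNCGC on either strand. E2F matches on the 2 strands can share bases, and then the capitals run together.
Ccnb2 (chr9:70421555-70421724, minus strand): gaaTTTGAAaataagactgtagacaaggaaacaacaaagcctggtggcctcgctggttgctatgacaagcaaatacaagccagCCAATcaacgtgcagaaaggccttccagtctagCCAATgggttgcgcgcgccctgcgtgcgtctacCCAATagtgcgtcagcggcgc
Mki67 (chr7:135716380-135716549, minus strand): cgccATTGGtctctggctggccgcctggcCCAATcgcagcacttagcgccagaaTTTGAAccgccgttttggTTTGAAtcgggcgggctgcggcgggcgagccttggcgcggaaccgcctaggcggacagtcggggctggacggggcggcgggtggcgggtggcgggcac
Mcm5 (chr8:75109339-75109508, plus strand): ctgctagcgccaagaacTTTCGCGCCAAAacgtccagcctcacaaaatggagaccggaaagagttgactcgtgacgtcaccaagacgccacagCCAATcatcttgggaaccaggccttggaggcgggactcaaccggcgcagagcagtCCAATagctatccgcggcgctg
Mcm6 (chr1:128359706-128359875, minus strand): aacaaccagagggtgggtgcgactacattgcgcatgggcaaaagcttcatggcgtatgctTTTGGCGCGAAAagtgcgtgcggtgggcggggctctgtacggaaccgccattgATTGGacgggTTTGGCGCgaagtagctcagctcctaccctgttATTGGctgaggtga

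In the 250 bases before the start, 9 of 20 mitotic genes with a promoter in that table held the CHR letters, against 18.3% of all 27025 genes, and 18 of 20 held a CCAAT box, against 37.5% of all. Of 12 S phase genes with a promoter, 1 held the CHR letters, 8 held a CCAAT box and 4 held the E2F letters, against 4.94% of all genes for the last. One mitotic gene held the E2F letters. Ccnb2 holds 3 CCAAT boxes that begin 87, 54 and 21 bases before the start, and Mcm6 holds E2F letters that begin 110, 106 and 47 bases before it. A match is a description of letters, not of a bound site. In all, 34 of the 43 genes had an entry, and Kif20a, Aurkb, Ccna2, Ccnd2, Ccne2, Gins2, Tpx2, Ccnd1 and Mcm4 had none.

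Facts of the whole series that touch these genes were few. Reads were not counted in the files, so depth in reads is unknown and no detection limit is given. From 9783 to 10258 genes per library had at least 1 FPKM, and 5123 to 10140 were listed at 0, with the fewest in the Gr-1- null library and the most in the CD19Cre Gr-1+ library. Relative depth, from the steps between the lowest values, was 0.705 to 1.30 in Gr-1+ and 1 to 2.66 in Gr-1- libraries, with the floxed library set to 1. It did not follow the genes listed at 0: the Gr-1- CD19Cre library, at 2.66, had 8827 of them and the floxed library 5246. In the CD19Cre Gr-1+ library the estimate rested on 108 of 1337 genes, so these depths are uncertain. Monocyte markers separated as the sort implies: 9 classical markers summed to 4515 to 10204 FPKM in Gr-1+ libraries against 324 to 709 FPKM, and 10 nonclassical markers to 558 to 795 and 2523 to 4354 FPKM. The targeted gene, Fcgr2b, stood at 105.9 to 200.7 FPKM in the libraries labelled null, against 74.9 FPKM in the floxed library, so genotypes are named below only as labelled. A level per gene does not tell a shortened transcript from a whole one.

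S phase and mitotic genes that passed went opposite ways between the subsets. Of the 13 tested S phase genes, 4 passed toward Gr-1- and 0 toward Gr-1+, with 9 that did not pass (limma, adjusted over all genes). Of the 17 tested mitotic genes, 3 passed toward Gr-1+ and 0 toward Gr-1-, with 14 that did not pass. Among the 4 tested G1 cyclins, Ccne1 passed toward Gr-1+ and Ccnd2 toward Gr-1-. In all, 9 of 34 genes passed, beside 15.0% of the 11354 genes tested, with 8.88% toward Gr-1+ and 6.12% toward Gr-1-. The median log2 difference, Gr-1+ minus Gr-1-, was -0.48 for the S phase genes and 0.28 for the mitotic genes, beside 0.08 for all genes tested. Libraries of the 2 subsets did not overlap for 5 genes higher in Gr-1+ (Aurkb, Ccnb1, Ccnb2, Ccne1 and Kif22), beside 10.1% of all genes, and for 5 higher in Gr-1- (Ccnd1, Ccnd2, Gins2, Mcm7 and Pcna), beside 6.54%. Genes that are low in 1 subset passed the floor through the other (Ccnb1, Ccne1, Kif20a and Kif22 through Gr-1+, Ccnd1 through Gr-1-), so these counts and medians are descriptions and support nothing about the group. In bulk RNA, fewer cells of a type and less RNA per cell cannot be told apart.

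**Figure D1:**
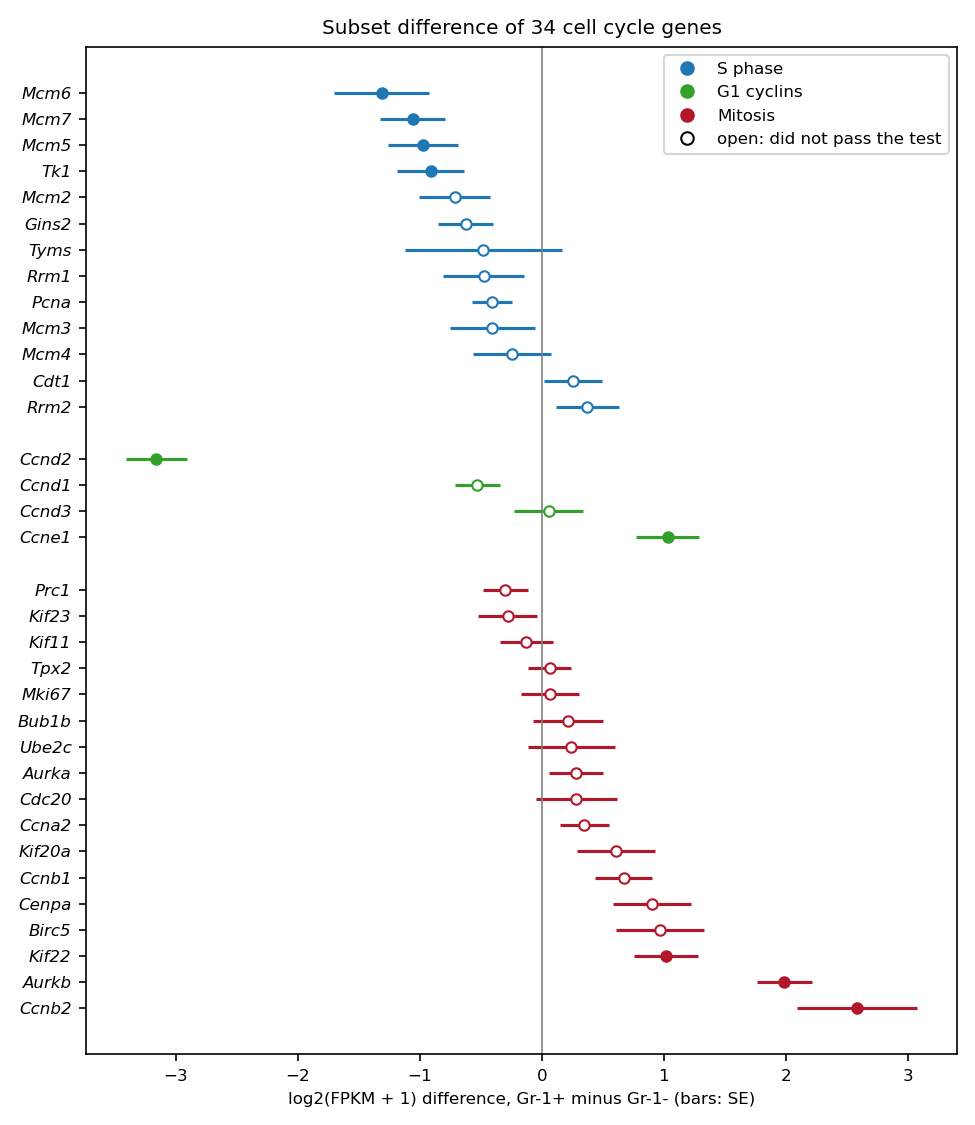
Difference in log2(FPKM + 1), Gr-1+ (4 libraries) minus Gr-1- (5 libraries), for the 34 genes above the floor, with bars for the standard error and filled points for the 9 genes that passed (limma). S phase genes (blue) lie mostly left of zero, with 4 filled, and mitotic genes (red) mostly right of it, with 3 filled.

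The MCM genes encode the 6 subunits of the replicative helicase, and all 6 had a negative difference. Mcm6 had the highest mean of them, 11.0 FPKM. In Gr-1+ libraries it stood at 3.69 and 3.73 FPKM in null 1 and 2, 4.23 FPKM in CEBPaCre and 10.2 FPKM in CD19Cre. In Gr-1- libraries it stood at 7.98 FPKM in null, 15.8 FPKM in CEBPaCre, 23.8 FPKM in CD11cCre, 21.9 FPKM in CD19Cre and 7.60 FPKM in floxed. The CD19Cre Gr-1+ library thus overlapped the null and floxed Gr-1- libraries, and the other 3 Gr-1+ libraries lay below all of Gr-1-. Mcm6 averaged 5.47 ± 3.19 FPKM (SD, n = 4) against 15.4 ± 7.56 FPKM (n = 5), 2.48-fold higher in Gr-1- on the FPKM + 1 scale (log2 difference -1.31 ± 0.39 SE, limma adjusted p = 0.0434).

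Mcm7 separated the subsets fully. Its Gr-1+ values were 3.42 and 4.16 FPKM in null 1 and 2, 3.99 FPKM in CEBPaCre and 6.48 FPKM in CD19Cre. Its Gr-1- values were 6.97, 11.4, 15.1, 13.2 and 6.94 FPKM in null, CEBPaCre, CD11cCre, CD19Cre and floxed. The difference was 2.08-fold (log2 -1.06 ± 0.27 SE, limma adjusted p = 0.0203). Mcm7 shares its locus with the opposite-strand genes Cops6 and Ap4m1, and no source used here states that counting used strand, so its level is uncertain to that extent.

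Mcm5, whose promoter carries paired E2F letters, overlapped only through its lowest Gr-1- library. It stood at 2.48, 3.27, 4.34 and 5.64 FPKM in null 1, null 2, CEBPaCre and CD19Cre of Gr-1+. In Gr-1- it stood at 6.33, 9.41, 12.5, 11.2 and 4.90 FPKM in null, CEBPaCre, CD11cCre, CD19Cre and floxed, so the floxed library fell within the Gr-1+ range. It was 1.97-fold higher in Gr-1- (log2 -0.97 ± 0.29 SE, limma adjusted p = 0.0415). Mcm2, Mcm3 and Mcm4 did not pass, at log2 differences of -0.72, -0.41 and -0.25 (limma adjusted p = 0.131, 0.506 and 0.675).

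The calls of Mcm5, Mcm6 and Mcm7 rested on few libraries. Each was lost when either null Gr-1+ library, the CEBPaCre Gr-1+ library or the CEBPaCre Gr-1- library was left out, with limma adjusted p up to 0.122, 0.114 and 0.0653 over all alternatives. Mcm5 and Mcm6 were also lost without the CD11cCre or the CD19Cre Gr-1- library and with no floor, while the difference stayed negative in every alternative run.

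Summed over the 6 genes, the helicase stood at 22.7 and 23.6 FPKM in null 1 and 2, 28.0 FPKM in CEBPaCre and 53.6 FPKM in CD19Cre of Gr-1+. The sums in Gr-1- were 39.0 FPKM in null, 64.2 FPKM in CEBPaCre, 81.9 FPKM in CD11cCre, 78.7 FPKM in CD19Cre and 31.8 FPKM in floxed. Each of the 3 same-genotype pairs had the lower sum in Gr-1+. Mcm2 was the lowest of the 6 in every library, and Mcm4 was the highest in the Gr-1+ libraries and in Gr-1- null, where Mcm6 took that place in the other Gr-1- libraries.

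Among the genes of licensing and origin firing, none passed. Cdt1, which loads the helicase, was the highest of them, at 6.23, 4.05, 6.15 and 8.71 FPKM in Gr-1+ (null 1, null 2, CEBPaCre, CD19Cre) and at 4.51, 4.48, 6.32, 6.67 and 3.40 FPKM in Gr-1- (null, CEBPaCre, CD11cCre, CD19Cre, floxed), with groups that overlapped (log2 0.25, limma adjusted p = 0.554). Under upper quartile scaling the sign of Cdt1 turned (log2 -0.06). Gins2, a subunit of the active helicase, ran from 1.12 to 2.79 FPKM in Gr-1+ and from 2.81 to 5.41 FPKM in Gr-1- without overlap, and it did not pass (log2 -0.63, limma adjusted p = 0.0966).

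Pcna, the sliding clamp of DNA polymerase that also serves in repair, was the S phase gene with the highest level. It was flat within Gr-1+, at 40.0, 38.2, 40.3 and 37.5 FPKM in null 1, null 2, CEBPaCre and CD19Cre. In Gr-1- it stood at 53.8, 59.2, 53.0, 53.5 and 42.7 FPKM in null, CEBPaCre, CD11cCre, CD19Cre and floxed. No library of one subset reached the other, and the means were 39.0 ± 1.34 FPKM (SD, n = 4) and 52.4 ± 5.99 FPKM (n = 5). The difference did not pass (log2 -0.41 ± 0.17 SE, limma adjusted p = 0.133), but it passed with the replicate block (limma adjusted p = 0.0378). That block sets null 1, CEBPaCre and CD19Cre libraries of the 2 subsets against each other, and with it the count over all genes was 22.5%.

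Of the genes of nucleotide supply, Tk1 alone passed. This thymidine kinase stood at 2.42, 1.84, 1.14 and 1.44 FPKM in null 1, null 2, CEBPaCre and CD19Cre of Gr-1+ and at 3.06, 6.74, 3.96, 2.09 and 5.57 FPKM in null, CEBPaCre, CD11cCre, CD19Cre and floxed of Gr-1-. The Gr-1- CD19Cre library lay within the Gr-1+ range. The difference of 1.88-fold (log2 -0.91 ± 0.27 SE, limma adjusted p = 0.0466) was the least stable of the 9: it passed in 5 of 16 alternatives, was lost with the replicate block (limma adjusted p = 0.147), and Tk1 overlaps the opposite-strand gene Afmid.

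Rrm1 and Rrm2 encode the large and small subunit of ribonucleotide reductase and did not go together. Rrm1 ran from 2.58 to 7.52 FPKM in Gr-1+ and from 2.97 to 10.3 FPKM in Gr-1- (log2 -0.48, limma adjusted p = 0.403), and it passed with the replicate block (limma adjusted p = 0.0416). Rrm2 ran from 0.67 to 2.87 FPKM in Gr-1+ and from 0.43 to 1.43 FPKM in Gr-1- (log2 0.37, limma adjusted p = 0.405). Tyms, the thymidylate synthase, was uneven within both subsets, from 2.76 to 17.3 FPKM in Gr-1+ and from 2.01 to 28.1 FPKM in Gr-1- (limma adjusted p = 0.690). Its 3 highest libraries, Gr-1+ null 2, Gr-1- null and Gr-1- floxed, were also the 3 with the fewest genes listed at 0, and the part of that in the level of Tyms was not tested.

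D type cyclins start the cycle by activating CDK4 and CDK6, and Ccnd2 had the largest difference of the 34 genes. It stood at 1.18, 0.48, 0.20 and 0.44 FPKM in Gr-1+ (null 1, null 2, CEBPaCre, CD19Cre). In Gr-1- it stood at 21.0 FPKM in null, 9.57 FPKM in CEBPaCre, 11.5 FPKM in CD11cCre, 11.1 FPKM in CD19Cre and 12.9 FPKM in floxed. The lowest Gr-1- library was thus several times above the highest Gr-1+ library. The means were 0.576 ± 0.421 FPKM (SD, n = 4) and 13.2 ± 4.53 FPKM (n = 5), a difference of 8.94-fold on the FPKM + 1 scale (log2 -3.16 ± 0.25 SE, limma adjusted p = 1.64e-05), and it passed in 16 of 16 alternatives. NK cell markers, 10 genes, moved with the subset too, with a summed level of 1.24 to 4.18 FPKM in the Gr-1+ group against 24.4 to 468 FPKM, and the defining marker Ncr1 was listed at 0 in every Gr-1+ library. Within Gr-1-, the NK sum was 24.4, 153, 468, 130 and 187 FPKM in null, CEBPaCre, CD11cCre, CD19Cre and floxed. Some B cell markers were higher in Gr-1- as well, without overlap, such as Cd79a (0.334 to 1.03 against 5.08 to 29.1 FPKM), Cd79b (7.82 to 17.0 against 24.2 to 51.0 FPKM) and Cd22 (0.603 to 3.21 against 14.3 to 53.6 FPKM). The part of these cells in Ccnd2 was not tested. Antisense genes overlap Ccnd2 and cannot be told apart from it without strand.

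Ccnd3 was by far the highest of the 34 genes and did not follow the subset. It stood at 161.4 and 163.3 FPKM in null 1 and 2, 267.4 FPKM in CEBPaCre and 266.9 FPKM in CD19Cre of Gr-1+, and at 140.5, 218.4, 249.9, 282.1 and 149.5 FPKM in null, CEBPaCre, CD11cCre, CD19Cre and floxed of Gr-1-. The groups overlapped across nearly their whole range (log2 0.05 ± 0.28 SE, limma adjusted p = 0.928), and the sign turned in 6 alternatives. It made up 99.1% to 99.9% of the summed FPKM of the D type cyclins in Gr-1+ and 86.7% to 95.7% in Gr-1-, where Ccnd2 held 3.77% to 12.98%. Ccnd1 was low throughout, at 0.21, 0.22, 0.17 and 0.25 FPKM in Gr-1+ (null 1, null 2, CEBPaCre, CD19Cre) and at 0.60, 0.86, 0.66, 1.51 and 0.33 FPKM in Gr-1- (null, CEBPaCre, CD11cCre, CD19Cre, floxed). Its groups did not overlap, and the difference did not pass (log2 -0.53 ± 0.18 SE, limma adjusted p = 0.0816), except with the replicate block (0.0474), under both scalings and without the floxed library.

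Ccne1, the E type cyclin that activates CDK2 at the entry into S phase, went the other way. It stood at 1.18, 1.15, 1.28 and 3.54 FPKM in Gr-1+ (null 1, null 2, CEBPaCre, CD19Cre) and was listed at 0 FPKM in Gr-1- null, with 0.37, 0.25, 0.82 and 0.15 FPKM in CEBPaCre, CD11cCre, CD19Cre and floxed. All Gr-1+ libraries lay above all Gr-1- libraries. The means were 1.79 ± 1.17 FPKM (SD, n = 4) and 0.317 ± 0.313 FPKM (n = 5), a 2.04-fold difference (log2 1.03 ± 0.26 SE, limma adjusted p = 0.0193). It passed in all 15 alternatives where it was tested, and with a floor of 1 FPKM it was not tested. Ccne1 averaged under the floor of 0.5 FPKM in Gr-1- and reached it through Gr-1+, so its calls are descriptions.

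**Figure D2:**
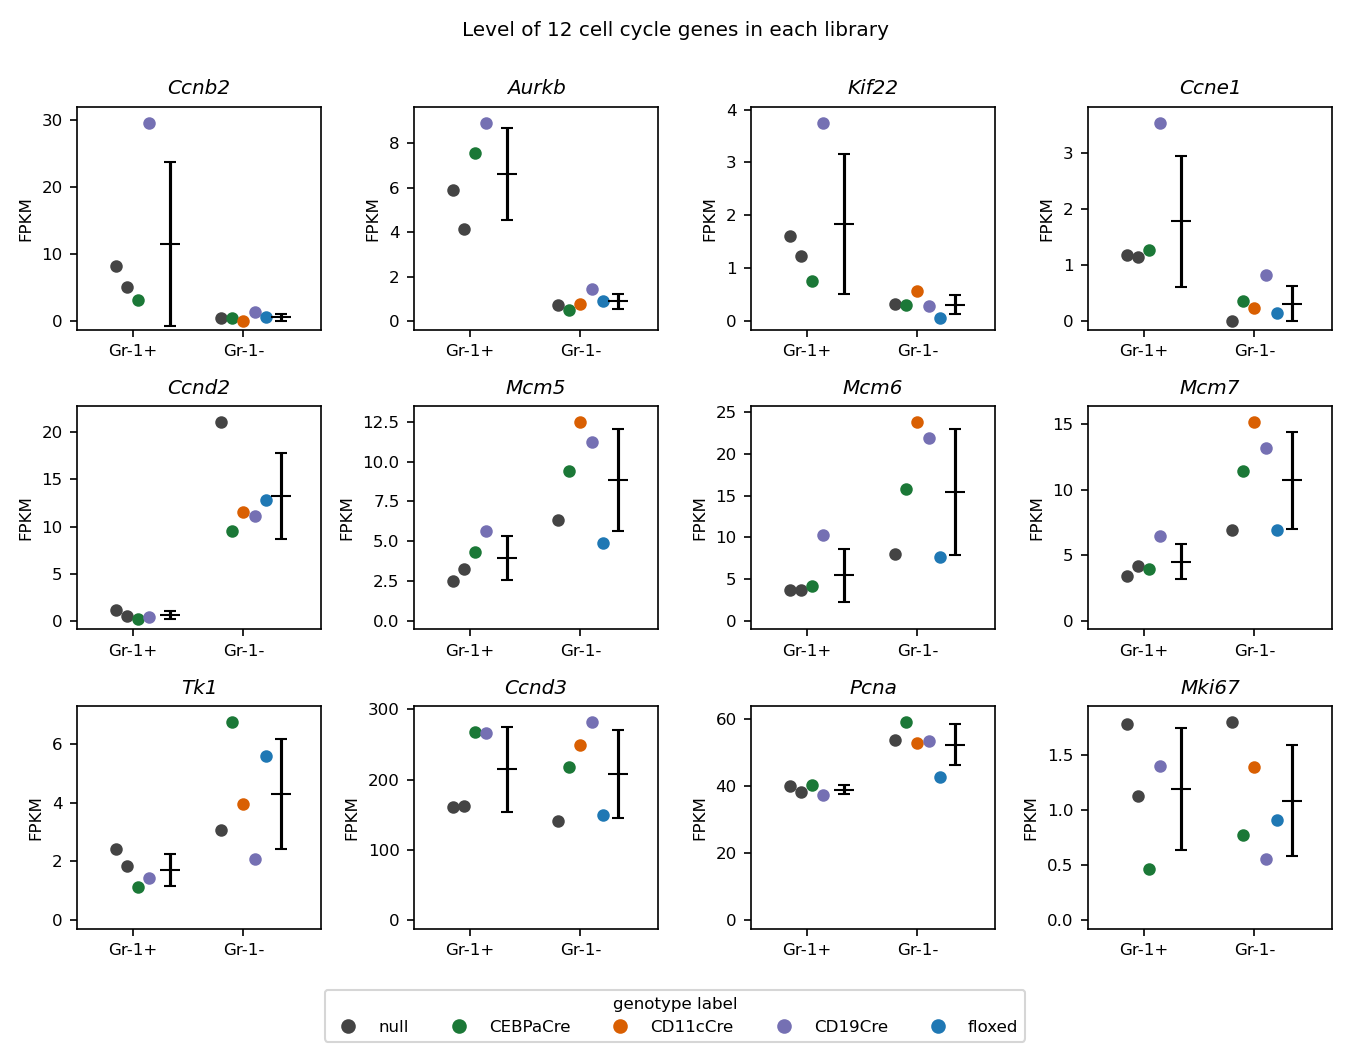
FPKM of 12 genes in each library (points, coloured by genotype label), with the mean and SD of each subset as a bar to the right of its points. Ccnb2, Aurkb, Kif22 and Ccne1 are higher in all 4 Gr-1+ libraries, Ccnd2 and Mcm7 in all 5 Gr-1- libraries, while Ccnd3 and Mki67 overlap between the subsets.

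Of the mitotic cyclins and their destruction genes, Ccnb2 had the largest difference. Cyclin B2 partners CDK1 at the entry into mitosis. Its level was 8.28 and 5.11 FPKM in null 1 and 2, 3.12 FPKM in CEBPaCre and 29.6 FPKM in CD19Cre of Gr-1+. In Gr-1- it was 0.53, 0.43, 1.41 and 0.59 FPKM in null, CEBPaCre, CD19Cre and floxed, and it was listed at 0 in CD11cCre. The groups did not overlap, but the spread within Gr-1+ was wide, at 11.5 ± 12.3 FPKM (SD, n = 4) against 0.595 ± 0.512 FPKM (n = 5). The difference was 6.00-fold on the FPKM + 1 scale (log2 2.59 ± 0.49 SE, limma adjusted p = 0.00468) and passed in 16 of 16 alternatives, among them those without the CD19Cre libraries. A pseudogene, Ccnb2-ps, could share reads with it.

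Ccnb1, the other B type cyclin, was 0.39 to 2.32 FPKM in the Gr-1+ group against 0.10 to 0.34 FPKM, without overlap, and did not pass (log2 0.67 ± 0.23 SE, limma adjusted p = 0.0808). Cdk1 itself was below the floor in every library, at 0.10 to 0.25 FPKM in the Gr-1+ group against 0.10 to 0.38 FPKM. Ccna2, Cdc20 and Ube2c, of which the last 2 serve the anaphase-promoting complex, did not pass, at log2 differences of 0.35, 0.28 and 0.24. Ube2c turned sign under upper quartile scaling (log2 -0.08), and Cdc20 without the CD19Cre Gr-1+ library (log2 -0.03).

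Aurkb, the Aurora kinase of the chromosomal passenger complex, separated the subsets without overlap. It stood at 5.89, 4.13, 7.55 and 8.91 FPKM in null 1, null 2, CEBPaCre and CD19Cre of Gr-1+. In Gr-1- it stood at 0.75, 0.53, 0.80, 1.47 and 0.91 FPKM in null, CEBPaCre, CD11cCre, CD19Cre and floxed. No Gr-1- library came near the Gr-1+ range, and the means were 6.62 ± 2.07 FPKM (SD, n = 4) and 0.892 ± 0.352 FPKM (n = 5). The difference was 3.96-fold (log2 1.99 ± 0.22 SE, limma adjusted p = 1.53e-04) and passed in 16 of 16 alternatives. Aurka, which acts at the spindle poles, did not pass (1.88 to 3.79 against 1.01 to 2.69 FPKM, limma adjusted p = 0.464). Birc5, survivin, a partner of Aurkb in the same complex, was 4.25 ± 2.27 FPKM (SD, n = 4) in the Gr-1+ group against 1.63 ± 1.06 FPKM (n = 5), with overlap, and did not pass (log2 0.97, limma adjusted p = 0.102). Without the CEBPaCre Gr-1+ library, Birc5 (limma adjusted p = 0.0392) and Ccnb1 (0.0495) passed. The checkpoint kinase Bub1b did not pass (limma adjusted p = 0.690), and Plk1 and Bub1 were below the floor at means of 0.40 and 0.16 FPKM.

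Kif22, a chromokinesin that moves chromosome arms on the spindle, was the third mitotic gene that passed. It stood at 1.61, 1.23, 0.77 and 3.75 FPKM in Gr-1+ (null 1, null 2, CEBPaCre, CD19Cre) and at 0.33, 0.31, 0.58, 0.29 and 0.07 FPKM in Gr-1- (null, CEBPaCre, CD11cCre, CD19Cre, floxed), without overlap. The difference was 2.02-fold (log2 1.02 ± 0.26 SE, limma adjusted p = 0.0219), and it was lost with the replicate block (limma adjusted p = 0.0506). Kif22 averaged 0.317 FPKM in Gr-1- and reached the floor of 0.5 FPKM through Gr-1+, so its call is a description. An antisense gene and the pseudogene Kif22-ps could share reads with it.

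The other 5 tested genes of the spindle did not pass. Kif23, a motor of cytokinesis, had the highest mean of the spindle genes, and its groups overlapped in part. It stood at 2.62, 1.29, 3.19 and 1.96 FPKM in Gr-1+ (null 1, null 2, CEBPaCre, CD19Cre) and 2.28, 4.51, 3.37, 2.76 and 1.93 FPKM in Gr-1- (null, CEBPaCre, CD11cCre, CD19Cre, floxed). Its log2 difference was -0.28 (limma adjusted p = 0.507), and those of Prc1, Kif11, Tpx2 and Kif20a were -0.30, -0.13, 0.06 and 0.61. Kif23, Prc1 and Kif11 were thus the 3 mitotic genes with a negative difference.

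Cenpa, the histone variant that marks centromeres, stood at 9.28, 4.26, 5.66 and 12.6 FPKM in Gr-1+ (null 1, null 2, CEBPaCre, CD19Cre) and at 2.16, 3.39, 6.26, 3.86 and 2.69 FPKM in Gr-1- (null, CEBPaCre, CD11cCre, CD19Cre, floxed). Only the CD11cCre library of Gr-1- reached the Gr-1+ range. The difference did not pass (log2 0.90 ± 0.32 SE, limma adjusted p = 0.0846), and it passed with the replicate block (limma adjusted p = 0.0203), without Gr-1+ null 2 and without the CD11cCre library. Cenpe, Cenpf and Nusap1 were below the floor at means of 0.29, 0.47 and 0.22 FPKM.

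Mki67, the proliferation marker that coats mitotic chromosomes, did not separate the subsets. It stood at 1.79, 1.13, 0.46 and 1.40 FPKM in Gr-1+ (null 1, null 2, CEBPaCre, CD19Cre) and at 1.80, 0.77, 1.39, 0.55 and 0.91 FPKM in Gr-1- (null, CEBPaCre, CD11cCre, CD19Cre, floxed). Both subsets covered nearly the same range (log2 0.07 ± 0.23 SE, limma adjusted p = 0.894), and the sign turned in 5 alternatives. Top2a, the topoisomerase that untangles sister chromosomes, was below the floor, at 0.19, 0.48, 0.14 and 0.26 FPKM in Gr-1+ and at 0.41, 0.59, 1.03, 0.73 and 0.58 FPKM in Gr-1- in the same order of labels. The promoter of Mki67 printed above carries CHR letters and CCAAT boxes as that of Ccnb2 does, and the levels of these genes across the libraries went apart.

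Markers of granulocyte precursors, cells that divide in the bone marrow, were also higher in Gr-1+, as were the 3 mitotic genes that passed. The 10 markers summed to 134.6, 67.4, 134.7 and 384.7 FPKM in Gr-1+ null 1, null 2, CEBPaCre and CD19Cre, and to 0.712 to 3.23 FPKM in Gr-1-. Of the 10, 9 did not overlap between the subsets, beside 10.1% of all genes tested, and Camp was listed at 0 in every Gr-1- library. Mpo was among those 9 and did not pass (limma adjusted p = 0.262). The CD19Cre Gr-1+ library, highest in Ccnb2, Aurkb, Kif22 and Ccne1, was also highest in the sum of the 10 markers. Null 1 and CEBPaCre of Gr-1+ had nearly the same sum. Ccnb2 stood at 8.28 and 3.12 FPKM in them, and Kif22 at 1.61 and 0.77 FPKM. Single markers differed in order, with Mpo at 5.68 FPKM in CD19Cre and 0.087 to 0.321 FPKM in the other Gr-1+ libraries, and Prtn3 at 55.9 FPKM in null 1 and 34.2 FPKM in CD19Cre. Mature neutrophil markers summed to 605 to 1944 FPKM in the Gr-1+ group against 67.8 to 156 FPKM. S100a8 (380 to 1423 FPKM in Gr-1+) and S100a9 (148 to 413 FPKM) held most of that sum. Of these 7 markers, 4 did not overlap, beside 10.1% of all genes tested. The other 3, Retnlg, Cxcr2 and Csf3r, overlapped and did not pass, and Cxcr2 averaged 6.20 FPKM in Gr-1+ against 7.80 FPKM. Progenitor markers did not move with the subset, at 5.41 to 13.6 against 6.66 to 10.5 FPKM, with Myb and Gata2 under 0.5 FPKM in every library. The part of such cells in the mitotic genes was not tested.

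To set the phases side by side, the mean log2(FPKM + 1) was taken over the 13 S phase and over the 17 mitotic genes in each library. The S phase level was 2.33, 2.35, 2.32 and 2.91 in Gr-1+ (null 1, null 2, CEBPaCre, CD19Cre) and 2.83, 3.13, 3.20, 3.18 and 2.73 in Gr-1- (null, CEBPaCre, CD11cCre, CD19Cre, floxed). The mitotic level was 1.87, 1.48, 1.36 and 2.26 in Gr-1+ and 1.26, 1.17, 1.14, 1.19 and 1.14 in Gr-1-. The CD19Cre Gr-1+ library thus reached the S phase level of Gr-1- libraries and had the highest mitotic level of all. The mitotic minus the S phase level was -0.74 ± 0.23 (SD, n = 4) in Gr-1+, ranging from -0.97 to -0.46, and -1.84 ± 0.23 (n = 5) in Gr-1-, ranging from -2.07 to -1.57. With all 38 listed S phase and mitotic genes, including those below the floor, it ran from -1.14 to -0.75 in Gr-1+ and from -2.09 to -1.62 in Gr-1-. This is a description of the chosen genes and carries no test.

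**Figure D3:**
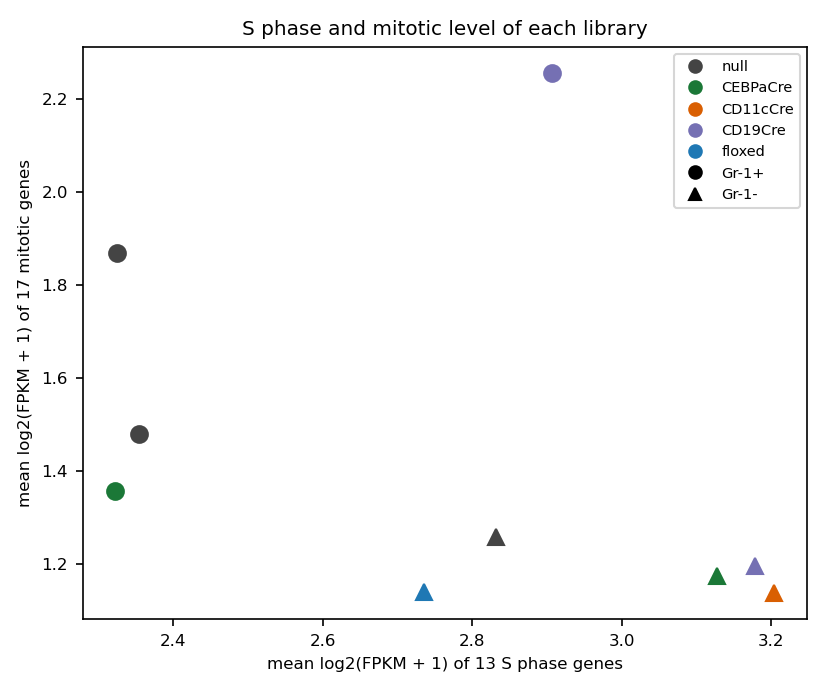
Mean log2(FPKM + 1) of 13 S phase genes (x axis) and of 17 mitotic genes (y axis) in each library, with circles for Gr-1+, triangles for Gr-1- and colours for the genotype label. The 5 Gr-1- libraries lie low on the mitotic axis, between 1.14 and 1.26, and the 4 Gr-1+ libraries lie above them, between 1.36 and 2.26.

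Within the 3 same-genotype pairs (null 1, CEBPaCre and CD19Cre), 12 of the 34 genes were lower in Gr-1+ in every pair, 10 were higher in every pair and 12 were mixed. The share of all genes that keep 1 direction in 3 of 3 pairs is not given here. These counts are thus descriptions and support nothing about the group. Mcm2, Mcm4, Mcm5, Mcm6, Mcm7, Gins2, Pcna, Rrm1, Tk1, Ccnd1, Ccnd2 and, of the mitotic genes, Prc1 were lower in Gr-1+ in 3 of 3 pairs. Cdt1, Rrm2, Ccne1, Ccnb1, Ccnb2, Aurka, Aurkb, Birc5, Cenpa and Kif22 were higher in Gr-1+ in 3 of 3. For Ccnb2 the log2 difference within a pair was 2.60 in null 1, 1.52 in CEBPaCre and 3.67 in CD19Cre.

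Other genes of the same pathways were taken from lists by function. Of 40 other tested replication genes, 4 passed toward Gr-1-, 1 passed toward Gr-1+ and 35 missed the threshold, with a median log2 difference of -0.19. Over all genes, 6.12% passed toward Gr-1- and 8.88% toward Gr-1+, and these shares are the background of every list that follows. Lig1, the ligase of the lagging strand, stood at 0.704 ± 0.148 FPKM (SD, n = 4) in the Gr-1+ group against 2.41 ± 0.296 FPKM (n = 5) (limma adjusted p = 0.00102). Pola2, a subunit of the primase complex, stood at 7.55 ± 0.991 against 13.4 ± 1.84 FPKM (limma adjusted p = 0.0129), and Tipin, of the fork protection complex, at 6.63 ± 1.78 against 13.1 ± 2.91 FPKM (0.0224). Cdc45, a core subunit of the active helicase, went the other way, at 1.60 ± 0.397 FPKM in the Gr-1+ group against 0.617 ± 0.312 FPKM (limma adjusted p = 0.0311), and passed in 5 of 16 alternatives.

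Of 35 other tested mitotic genes, 5 passed toward each subset and 25 did not pass, with a median of -0.09, beside the same shares over all genes of 8.88% toward Gr-1+ and 6.12% toward Gr-1-. Racgap1, of cytokinesis, stood at 16.5 ± 5.22 FPKM (SD, n = 4) in the Gr-1+ group against 6.31 ± 1.40 FPKM (n = 5) (limma adjusted p = 0.00531), although not under upper quartile scaling (0.118). Cenpm, of the centromere, and Espl1, separase, each stood 1.99-fold higher in the Gr-1+ group (limma adjusted p = 0.00134 and 0.00327). Cks2, a small partner of CDKs, stood at 25.8 ± 8.45 FPKM in the Gr-1+ group against 85.1 ± 26.9 FPKM (limma adjusted p = 0.00286). Ndc80, of the outer kinetochore, and Fbxo5, an inhibitor of the anaphase-promoting complex, stood 2.49-fold and 1.69-fold higher in the Gr-1- group (limma adjusted p = 0.00196 and 0.00948). Cenpm and Espl1 reached the floor of 0.5 FPKM through Gr-1+, with means of 0.206 and 0.453 FPKM in Gr-1-. Ndc80 reached it through Gr-1-, with a mean of 0.451 FPKM in Gr-1+. The calls of these genes and this list's counts are thus descriptions.

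Of 16 tested regulators of the E2F, RB and DREAM group, 3 passed toward Gr-1+ and 0 toward Gr-1-, beside 8.88% and 6.12% of all genes, with a median of -0.03. E2f2, an activating E2F, averaged 36.4 ± 2.16 FPKM (SD, n = 4) against 18.3 ± 2.75 FPKM (n = 5) (limma adjusted p = 0.00314), with the call lost under upper quartile scaling (0.083). E2f8, an atypical E2F that represses, stood at 2.00 ± 0.383 against 0.268 ± 0.109 FPKM (limma adjusted p = 2.72e-04). It averaged under the floor of 0.5 FPKM in Gr-1- and reached it through Gr-1+, so its call and this list's counts are descriptions. Tfdp1, the partner of E2F factors, stood at 25.0 ± 4.64 against 12.1 ± 3.32 FPKM (limma adjusted p = 0.0127). E2f1 stood at 6.84 against 6.88 FPKM (limma adjusted p = 0.996) and Rb1 at 17.5 against 29.7 FPKM (0.138, and 0.0127 with the replicate block).

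Of 14 tested genes of CDK inhibitors and arrest, 3 passed toward Gr-1+ (Ccng2, Cdkn3 and Cdkn2c), 2 toward Gr-1- (Gadd45g and Cdkn1c) and 9 did not pass, beside 8.88% and 6.12% of all genes. Gadd45g, a stress-induced arrest gene, stood at 9.31 ± 5.68 FPKM (SD, n = 4) in the Gr-1+ group against 27.8 ± 7.77 FPKM (n = 5) (limma adjusted p = 0.0162, and 0.0513 without the CEBPaCre Gr-1+ library), and Ccng2, an atypical cyclin linked to arrest, at 32.6 ± 9.91 against 14.1 ± 3.60 FPKM (0.00879). Cdkn2c, the inhibitor p18, passed in 5 of 16 alternatives. Cdkn1a (p21), Cdkn1b (p27) and Cdkn2d (p19) did not pass, at limma adjusted p = 0.761, 0.153 and 0.0704, although Cdkn1b and Cdkn2d passed with the replicate block (0.014 and 0.0119). Of 14 G1 and general CDK genes, Cdk4 alone passed, 1.61-fold higher in Gr-1+ (limma adjusted p = 0.0325), in 8 of 16 alternatives, and Cdk6 stood at 1.36 against 3.15 FPKM (0.160, and 0.00891 with the replicate block). Of 9 tested genes of the S phase checkpoint and repair, Blm, a helicase of recombination, was 1.63-fold higher in Gr-1- (limma adjusted p = 0.0122) and 8 did not pass.

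The second comparison asked what differed by genotype, with null and CEBPaCre (5 libraries, labelled as lacking Fcgr2 in myeloid cells) set against CD19Cre and floxed (3 libraries, labelled as intact there), at equal subset and without the CD11cCre library. With limma, 0 of the 34 genes passed, beside 0% of 11347 genes, and 4 had an unadjusted p at or under 0.05, beside 13.7% of all genes. Those 4 were Rrm2, Ccnb2, Ccne1 and Kif20a, each lower in the libraries labelled deleted, at log2 differences of -0.72, -1.22, -0.62 and -0.71. The median log2 difference was -0.31 for the 34 genes, beside -0.02 for all genes. Whether the subset difference itself changed with the deletion label was fitted as an interaction, which passed for 0 of the 34 genes, beside 0.0793% of all genes.

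This comparison turned on the floxed library. Without it, 9 of the 34 genes passed, beside 21.8% of 11332 genes, and all 9 were higher in the CD19Cre libraries: Mcm3, Mcm4, Mcm6, Rrm1, Rrm2, Ccne1, Ccnb2, Bub1b and Kif20a. Over all genes, 1684 of the 2471 that passed were higher in the CD19Cre libraries too. The log2 difference was -0.97 ± 0.19 SE for Rrm1 (limma adjusted p = 0.0138), -1.06 ± 0.25 SE for Mcm6 (0.0227) and -1.56 ± 0.40 SE for Ccnb2 (0.0283). The intact group is then the 2 CD19Cre libraries alone, so the label and these 2 libraries cannot be told apart. With the floxed library alone as intact, without both CD19Cre libraries, 0 of the 34 genes passed and the sign turned for 7 of these 9, for example to 0.75 for Rrm1 and 0.52 for Mcm6, while Ccnb2 (-0.10) and Rrm2 (-0.39) stayed negative. In the Gr-1+ subset the CD19Cre library was the highest of 4 for 23 of the 34 genes, beside 41.8% of all genes tested. In the Gr-1- subset it was the highest of 5 for 14 genes, beside 37.9% of all, and the floxed library was the lowest for 16, beside 45.8%.

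Ccnd3 and Mcm3 did not overlap between libraries whose label names a Cre driver and the rest, a split looked at after their values were seen and not tested. Ccnd3 stood at 218.4 to 282.1 FPKM in the 5 libraries with a Cre label and at 140.5 to 163.3 FPKM in the 4 without one, with no overlap across both subsets. Of the 34 genes, 2 were higher and 1 (Kif11) was lower in every library with a Cre label, beside 10.7% and 2.46% of all genes tested. With scaling to an equal library sum, Ccnd3 still did not overlap, and with upper quartile scaling neither Ccnd3 nor Mcm3 separated. Ccnd3 overlaps the opposite-strand gene Bysl and has a pseudogene, Ccnd3-ps.

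**Figure D4:**
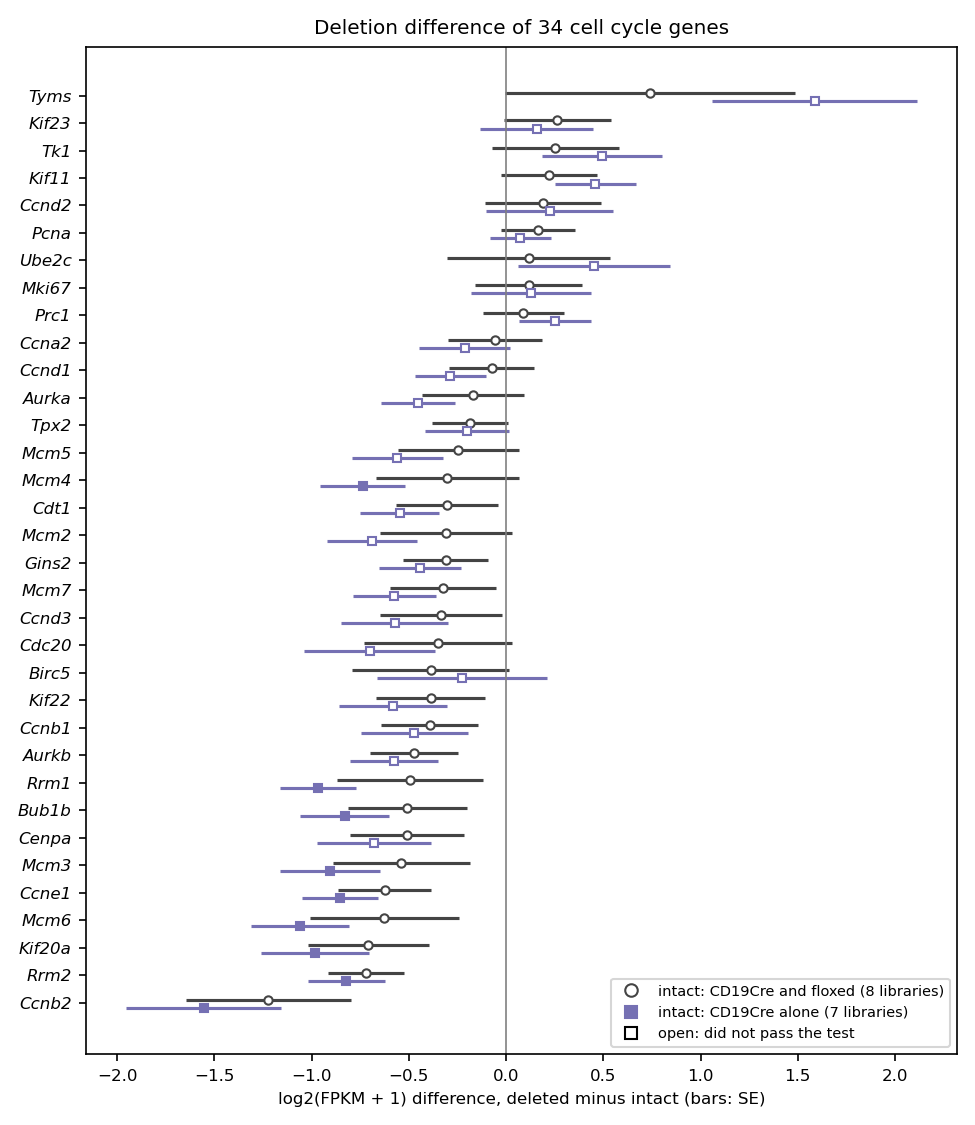
Difference in log2(FPKM + 1), libraries labelled deleted (null and CEBPaCre) minus intact, at equal subset, with standard errors, for the 34 genes. Circles use CD19Cre and floxed libraries as intact and none is filled; squares use the CD19Cre libraries alone, and the 9 filled squares passed (limma), all left of zero.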

How the data were processed

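Each deposited file held 1 library with FPKM values, which the authors made with TopHat2 2.0.8 and Cufflinks 2.1.1 on the mm9 build, per the submitters' processing notes; annotation, strand setting and filters are not given in the sources used here. About 100000 sorted cells went into each library, and cDNA was made with a low-input kit, per the labels. Every value column was used (0 left out).

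The 43 genes and the gene lists were chosen with earlier results of these data known. Genes whose mean over all libraries reached 0.5 FPKM and that were above 0 in 2 or more of those fitted were fitted on log2(FPKM + 1) with limma 3.58.1 in R 4.3.3 (eBayes with trend), after a test of the code on simulated data. A gene passed at 0.05 or less after Benjamini-Hochberg adjustment over all genes fitted. Folds are ratios of geometric means of FPKM + 1, which understates changes of low genes. Values per library are given for 7 fixed genes, every gene that passed and the highest gene of each role, and from each pathway list for up to 3 genes that passed in each direction and 7 fixed regulators. Alternatives were the pseudocount, the floor, 2 scalings, the 2 CD19Cre libraries left out, each library left out, and a replicate block. Libraries of the 2 subsets with the same genotype and replicate number were treated as pairs in that block. Their deviations correlated across genes at r = 0.22 for null 1, 0.16 for CEBPaCre and 0.56 for CD19Cre. Unmatched libraries ran from -0.35 to 0.23, the highest being Gr-1+ null 2 with Gr-1- floxed. Only the CD19Cre pair thus stood clear of unmatched libraries, and calls that rest on the block are uncertain to that extent. Promoter letters were searched on both strands of the RefSeq table of GRCm38.p6. The inner part of the 50 bases after the start matched an annotated transcript for 27 of 34 genes. Some marker lists are not reported here.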

Additional observations from a re-analysis of the deposited data

Results flagged for a closer look

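In 2 of 68 groups of libraries examined (34 genes in 2 subsets), 1 library stood far from the rest of its group on the log2 scale, where chance flags about 1 in 20 groups. Both were the CD19Cre Gr-1+ library. Mcm6 stood at 10.2 FPKM there, against 3.69 to 4.23 FPKM in the other Gr-1+ libraries. Ccne1 stood at 3.54 FPKM there, against 1.15 to 1.28 FPKM in the others. Without both CD19Cre libraries, Mcm6 and Ccne1 still passed between the subsets (limma), toward Gr-1- and Gr-1+ respectively. The call of Ccne1 is a description, since it reached the floor through Gr-1+.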

How the results depend on the processing

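The subset comparison called 1703 genes, 59.2% of them higher in Gr-1+; the split was 46.4% with scaling to an equal library sum (1978 genes) and 30.3% with upper quartile scaling (1774 genes), where the median of all genes shifted from 0.08 to -0.23. Leaving out 1 library each gave 1235 to 1741 genes and 5 to 9 of the 34 genes described here, with 5 without null replicate 1 of Gr-1+ and 5 without CEBPaCre of Gr-1-. Aurkb, Ccnb2 and Ccnd2 passed in 16 of 16 alternatives and Ccne1 in 15 of 15, and no gene that passed changed sign. Ccne1 reached the floor through Gr-1+, so its calls are descriptions. With the replicate block, 2553 genes and 12 of the 34 passed: Mcm2 (limma adjusted p = 0.0429), Pcna, Rrm1, Ccnd1 and Cenpa were gained, and Kif22 and Tk1 were lost; it changed no other call among the 34. The deletion comparison called 0 to 2471 genes and 0 to 9 of the 34 when 1 library was left out, the highest without the floxed library, and 5 genes without both CD19Cre libraries. The difference between subsets in the mitotic minus S phase level was 1.10, and it became 1.53 with a pseudocount of 0.1, which widens differences of low values by construction. The causes of the other changes were not tested. Without counts, depth sets no limit that could be given here.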
